A study of Mus musculus with 11 samples.

Results

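Mouse embryonic stem (ES) cells of the line R1 that had been differentiated for 4+8 days were compared with undifferentiated R1 cells on Affymetrix MG_U74Av2 arrays, a mouse GeneChip. The members were taken from the sample titles: 3 arrays labelled 4+8 days (replicates 1, 2 and 3) and 3 labelled undifferentiated (replicates 1, 5 and 9), which is 6 of the 11 arrays of the series. The other arrays hold cells after 4+11 days (n = 3) and the embryonic fibroblast feeder layer on its own (n = 2). They share the normalisation and the estimate of the spread, and they bear on which probe sets were tested and which one stands for a gene. They also serve as points of comparison. All ES cell groups come from the 1 line, which the labels say was grown on fibroblast feeders, and the differentiated progeny is labelled as cells with nestin expression that include neural progenitors. The labels give no genotype change, no agent and no cell sorting for any group. They speak of independent cultures in triplicate, so each array stands for 1 culture. No other group shares the scan session or the chip lot of the 4+8 day arrays, so group and session cannot be told apart in any value below. As deposited, those arrays share a trimmed mean intensity of 200.1, against 86.2 to 131.6 in undifferentiated cells, and undifferentiated replicate 9 was washed under another protocol than the other two.

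ES cells keep the capacity to form every cell type of the body through a network of transcription factors around Oct4, Sox2 and Nanog, helped by the cytokine LIF. When they aggregate and that support is withdrawn, the network shuts down and the cells pass through germ layer stages, and beating heart muscle is among the first differentiated tissues that such cultures form. Neural progenitors, which carry the intermediate filament protein nestin, are favoured by protocols that select for them in defined medium.

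Values are quantile-normalised intensities of 1 probe set, listed for 4+8 day replicates 1, 2 and 3 and then for undifferentiated replicates 1, 5 and 9. Differences are 4+8 days minus undifferentiated on the log2(intensity + 8) scale, which understates the change of dim genes, with the SE and the Benjamini-Hochberg adjusted p of limma fitted to all probe sets. A gene is said to have risen or fallen where that p was below 0.05, and its probe set is the brightest one with its symbol. Intensities of different genes are not comparable with each other. The cultures were measured in bulk, so fewer cells of a type and less RNA per cell cannot be told apart.

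Of 8940 probe sets tested, 3316 were called (37.1%), 1538 of them higher at 4+8 days (17.2%) and 1778 lower (19.9%). At the level of genes, 1177 of 6650 rose (17.7%) and 1342 fell (20.2%), and these 2 shares are the background for every list below. In 49.4% of genes the 3 values of one group lay wholly above those of the other. The median log2 difference over genes was 0.02. Rises of over 1 log2 unit numbered 672 and falls 947, and at over 4 units there were 15 rises and 21 falls. Falls were therefore the more numerous at both sizes. Called probe sets were higher at 4+8 days in 46.4% of cases. That share was 93.6% with the values as deposited, which put the median of all genes at 1.03, and 62.6% with each array scaled to 1 trimmed mean, which put it at 0.23. Relative to that median, 44 of 49 gene lists kept the sign of their own median under both scalings, and the exceptions were ribosomal proteins, oxidative phosphorylation, red cells, integrins and antigen presentation. Beside a list, fits without 1 array are named where they moved a count of 5 or more by over 1.5 times or a smaller one by over 2 calls. Without undifferentiated replicate 9 the calls numbered 1018 higher and 1257 lower.

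**Figure D1:**
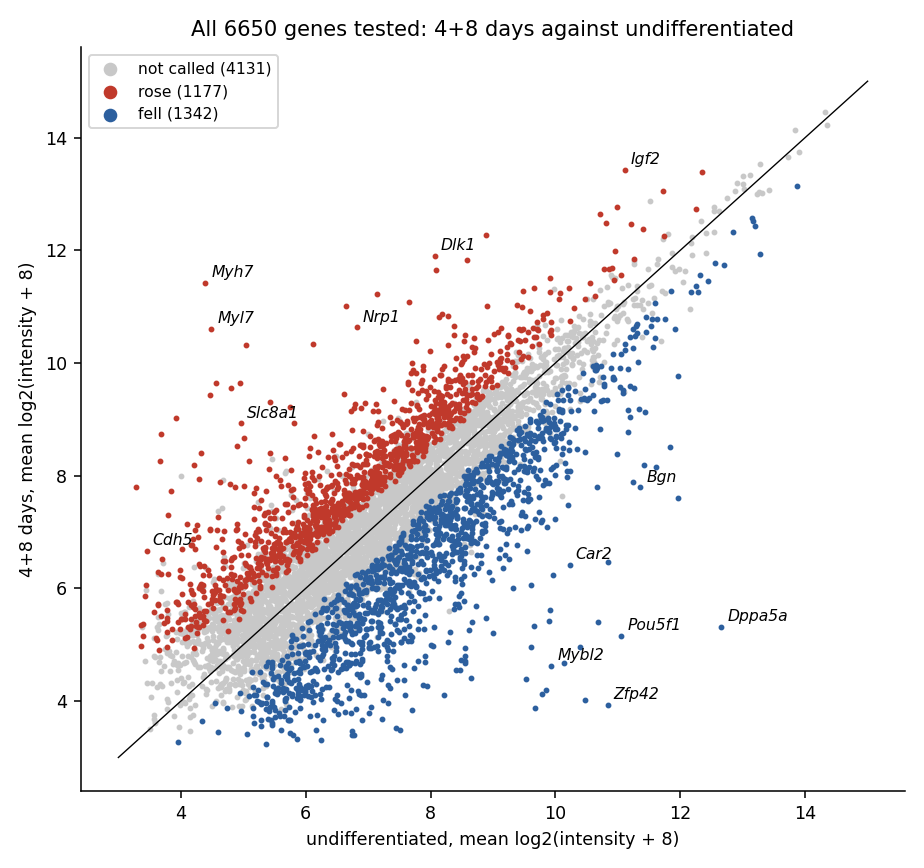
Mean log2(intensity + 8) of each of the 6650 genes tested, with the 3 arrays of 4+8 days on the vertical axis and the 3 undifferentiated arrays on the horizontal axis; each point is 1 gene, coloured by its call, and the line marks equality. The 1177 genes that rose lie above the line and the 1342 that fell below it, with the myosin genes Myh7 and Myl7 and the pluripotency genes Dppa5a and Zfp42 farthest from it among those labelled.

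Genes of the heart's contractile apparatus led the rises. Of 23 tested genes for contractile proteins of the heart, 20 rose, 0 fell and 3 did not pass, with a median log2 difference of 3.88 against 0.02 over all genes. Without 1 array at a time, between 17 and 21 rose. The filter on dim probe sets bears on this count: 14 of the 20 were at or below its limit, an intensity of 33.4, on every undifferentiated array and were tested through arrays where they are higher. Of the 9 tested members above that limit on an undifferentiated array 6 rose, and 3 more members on the chip were not tested. Myosin is the motor of the thick filament, and troponin on the thin filament makes its pull depend on calcium.

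Myh7, a cardiac myosin heavy chain whose probe set may also bind related myosins, read 4381, 1589 and 2888 at 4+8 days, against 14.8, 10.7 and 13.7 in undifferentiated cells. All 3 cultures were far above every undifferentiated array, a difference of 7.02 ± 0.62 (adjusted p = 6.77e-05). The second cardiac heavy chain, Myh6, read 1517, 625 and 523 at 4+8 days, against 21.5, 5.62 and 25.1 undifferentiated, a difference of 5.08 ± 0.57 (adjusted p = 0.000218). Myl7, the atrial regulatory light chain, stood at 2152, 1600.0 and 1069 at 4+8 days, against 27.3, 4.85 and 17.1 undifferentiated. Its range at 4+8 days lay wholly above the undifferentiated one, as it did for all 20 contractile genes that rose, and the difference was 6.11 ± 0.60 (adjusted p = 0.000122). The ventricular regulatory light chain Myl2 read 847, 167 and 518 at 4+8 days, against 4.9, 4.65 and 4.78 undifferentiated, a difference of 5.07 ± 0.65 (adjusted p = 0.000418), and the essential light chain Myl3 read 609.5, 111 and 145 at 4+8 days, against 1.59, 1.42 and 2.06 undifferentiated, at 4.53 ± 0.67 (adjusted p = 0.000879). Both were highest in replicate 1 and lowest in replicate 2.

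Among troponins, Tnnc1, the calcium-binding subunit, read 1196, 245 and 461 at 4+8 days, against 13.3, 5.62 and 4.06 undifferentiated, a difference of 5.11 ± 0.55 (adjusted p = 0.000186). The slow skeletal and fetal cardiac inhibitory subunit Tnni1 differed by 4.22 ± 0.48 (adjusted p = 0.000226), and the adult cardiac form Tnni3, at 144, 85.5 and 149.5 at 4+8 days, against 24.6, 20.04 and 7.2 undifferentiated, by 2.44 ± 0.43 (adjusted p = 0.00201). Cardiac actin, Actc1, read 3263, 1456 and 2142 at 4+8 days, against 197, 233 and 160.0 undifferentiated, a difference of 3.43 ± 0.43 (adjusted p = 0.000363), from a probe set that may also bind other actins. Of the proteins that anchor and hold the filaments, Mybpc3, which binds myosin, read 418, 260.0 and 336 at 4+8 days, against 7.26, 22.9 and 8.84 undifferentiated, a difference of 4.09 ± 0.54 (adjusted p = 0.000507). Csrp3, a protein of the Z-disc, read 573, 264 and 175 at 4+8 days, against 4.23, 5.05 and 4.78 undifferentiated, a difference of 4.60 ± 0.36 (adjusted p = 3.6e-05). Ankrd1, a stress-responsive protein of heart muscle, was at 3.88, the intermediate filament gene Des at 1.93 (adjusted p = 0.0579 without undifferentiated replicate 1) and Tpm1, a tropomyosin, at 1.64. The 3 members that did not pass, Tcap, Xirp1 and Nrap, were at 0.26, 0.39 and 0.60. Cox6a2, the heart and skeletal muscle form of a cytochrome oxidase subunit, was among the leading rises at 974, 391 and 844 at 4+8 days, against 14.5, 16.2 and 11.9 undifferentiated, a difference of 4.97 ± 0.47 (adjusted p = 8.76e-05).

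**Figure D2:**
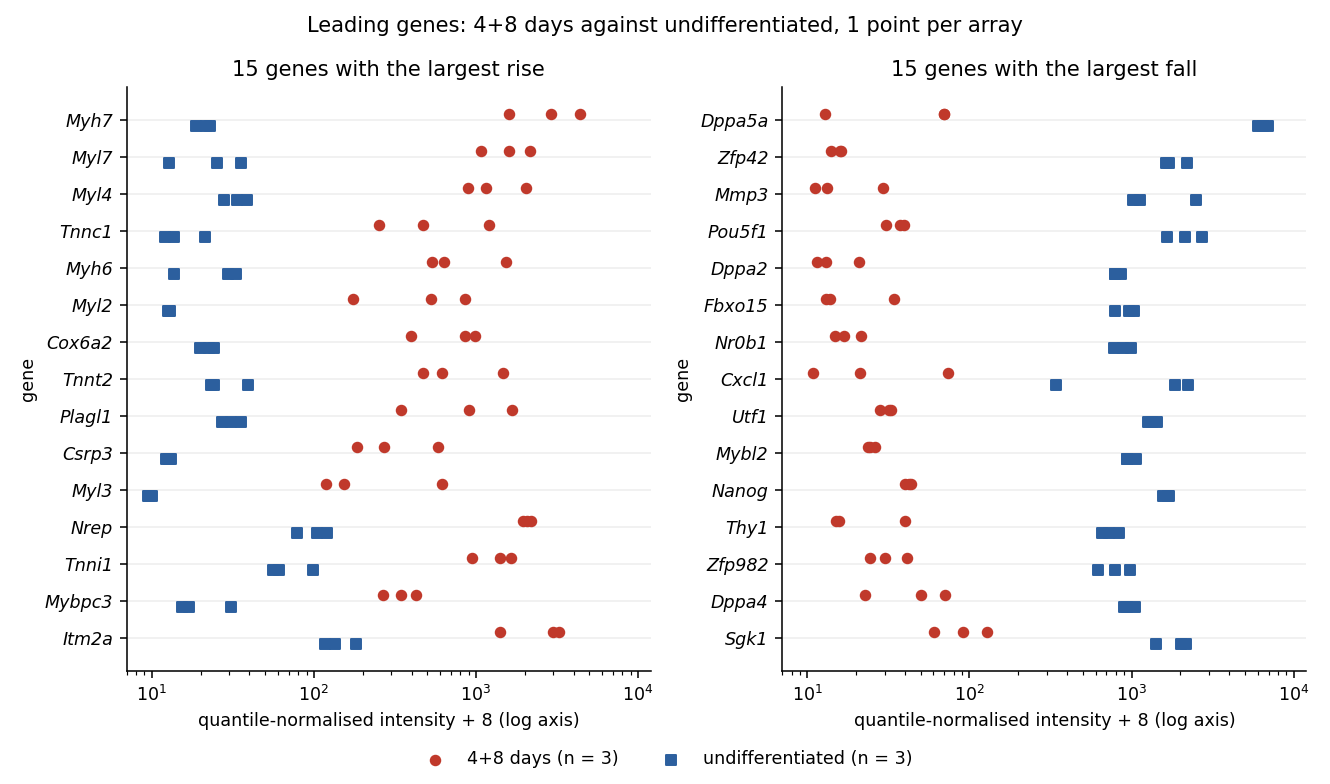
Quantile-normalised intensity plus 8, on a log axis, of the 15 called genes that rose most and the 15 that fell most without overlap between the groups; red circles are the 3 arrays of 4+8 days and blue squares the 3 undifferentiated arrays. The 2 groups stand apart in all 30 genes because the genes were chosen for that, and 12 of the 15 rises are muscle genes, among them Myh7 at 1589 to 4381 at 4+8 days against 10.7 to 14.8 in undifferentiated cells.

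The promoters of the contractile genes that rose are shown for a motif that muscle promoters are known for, the CArG box, which the serum response factor binds. In RefSeq promoters of GRCm38.p6, from 250 bases before to 50 bases after the gene start, 19 of the 20 genes had an entry, and 6 of these 19 held a CArG box on either strand (Actc1, Fhl2, Ldb3, Myl3, Myl7 and Myom1). That is 31.6% of these genes, against 1.81% of all 27025 genes of the table. A second motif, the MEF2 site, was searched as CTANNNNTAG with any base at N. That pattern was present for 3 of the 19 genes (Des, Ldb3 and Mybpc3), which is 15.8%, and for 4.23% of all genes. The CArG box reads the same way on both strands, so each copy counts once. None of the genes whose promoters are printed here held the MEF2 pattern. A match describes these letters and not a bound site. The 3 promoters shown carry the box shortly before the start and belong to genes with large rises, with the box in capitals.
Myl7, chr11:5898733-5899032, minus strand, GRCm38.p6: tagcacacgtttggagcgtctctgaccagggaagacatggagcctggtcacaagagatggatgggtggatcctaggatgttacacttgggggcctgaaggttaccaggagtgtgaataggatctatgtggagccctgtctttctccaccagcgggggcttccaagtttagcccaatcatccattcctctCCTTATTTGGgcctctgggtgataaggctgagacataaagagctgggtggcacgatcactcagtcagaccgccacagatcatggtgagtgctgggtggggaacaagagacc
Actc1, chr2:114052826-114053125, minus strand, GRCm38.p6: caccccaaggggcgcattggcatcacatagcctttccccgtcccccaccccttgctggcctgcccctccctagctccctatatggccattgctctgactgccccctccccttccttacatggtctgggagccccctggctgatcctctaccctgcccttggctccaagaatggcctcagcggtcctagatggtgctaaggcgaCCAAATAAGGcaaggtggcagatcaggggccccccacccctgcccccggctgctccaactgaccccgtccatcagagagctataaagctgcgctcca
Myl3, chr9:110763428-110763727, plus strand, GRCm38.p6: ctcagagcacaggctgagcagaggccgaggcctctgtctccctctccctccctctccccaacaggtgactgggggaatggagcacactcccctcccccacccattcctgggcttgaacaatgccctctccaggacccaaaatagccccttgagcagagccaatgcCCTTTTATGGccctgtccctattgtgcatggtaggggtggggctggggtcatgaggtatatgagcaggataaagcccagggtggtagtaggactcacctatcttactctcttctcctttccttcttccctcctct
The box ends 51 bases before the annotated start in Myl7, 37 in Actc1 and 75 in Myl3.

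Calcium handling and the cardiac transcription factors held no fall either. Of 19 tested genes for calcium handling, channels and hormones of the heart, 8 rose, 0 fell and 11 did not pass (5 rose without undifferentiated replicate 1 and 4 without replicate 9). Slc8a1, the sodium-calcium exchanger that removes calcium from the heart cell, read 460.5, 428 and 558 at 4+8 days, against 25.2, 26.5 and 18.4 in undifferentiated cells, a difference of 3.96 ± 0.30 (adjusted p = 3.14e-05). Its 3 values at 4+8 days lay within a narrow range, unlike those of the myosin genes. Corin, the protease that matures atrial natriuretic peptide, was at 1.88 ± 0.34 (adjusted p = 0.00236), and Kcne1, a potassium channel subunit, at 1.74 ± 0.37 (adjusted p = 0.00567). Gja1, the main gap junction protein of working heart muscle, did not pass at −0.34, nor did Atp2a2, the calcium pump of the sarcoplasmic reticulum, at 0.15.

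Of 16 tested cardiac transcription factors 9 rose, 0 fell and 7 did not pass. Gata6, a zinc finger factor of heart and endoderm, read 514, 223 and 555 at 4+8 days, against 20.1, 29.5 and 23.9 undifferentiated, a difference of 3.66 ± 0.45 (adjusted p = 0.000347). A dimmer probe set of Gata6 rose too, at 1.77 (adjusted p = 0.00273), and another did not pass, at −0.15 (adjusted p = 0.848). Hand2, a factor of the right ventricle and of limb and neural crest, read 126, 60.02 and 172 at 4+8 days, against 2.06, 12.5 and 22.05 undifferentiated, a difference of 2.68 ± 0.47 (adjusted p = 0.00213). Isl1, a factor of cardiac progenitors and motor neurons, read 61.6, 43.2 and 32.3 at 4+8 days, against 4.23, 5.05 and 4.06 undifferentiated, a difference of 2.07 ± 0.26 (adjusted p = 0.000405). The 3 genes share no order among the cultures: replicate 3 was highest for Gata6 and Hand2 and lowest for Isl1. Gata4, another factor of heart and endoderm, read 69.4, 20.4 and 46.00 at 4+8 days, against 70.7, 92.02 and 80.1 undifferentiated, and did not pass. Mef2c, which acts in all muscle, did not pass either, at 1.04 ± 0.44 (adjusted p = 0.0879).

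Smooth muscle genes rose in 8 of 16 cases and fell in 2 (5 rose without undifferentiated replicate 1 and 4 without replicate 9). Actg2 and Acta2, the smooth muscle actins, were at 2.31 ± 0.43 and 1.95 ± 0.43 (adjusted p = 0.00287 and 0.00684), and the light chain Myl9 at 1.67 ± 0.30 (adjusted p = 0.00236). Aebp1, a secreted protein of matrix, fell to 58.9, 16.8 and 11.9 at 4+8 days, against 242, 246 and 265 in undifferentiated cells. Among 13 skeletal muscle genes 2 rose and 1 fell, with Myog, the factor that starts muscle fibre formation, at 1.86 ± 0.31 (adjusted p = 0.00172) and the fast fibre light chain Mylpf at −2.73 ± 0.18 (adjusted p = 1.64e-05). Of 19 genes of muscle energy supply 5 rose and 4 fell (3 rose without 4+8 day replicate 1 or any 1 undifferentiated array).

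**Figure D3:**
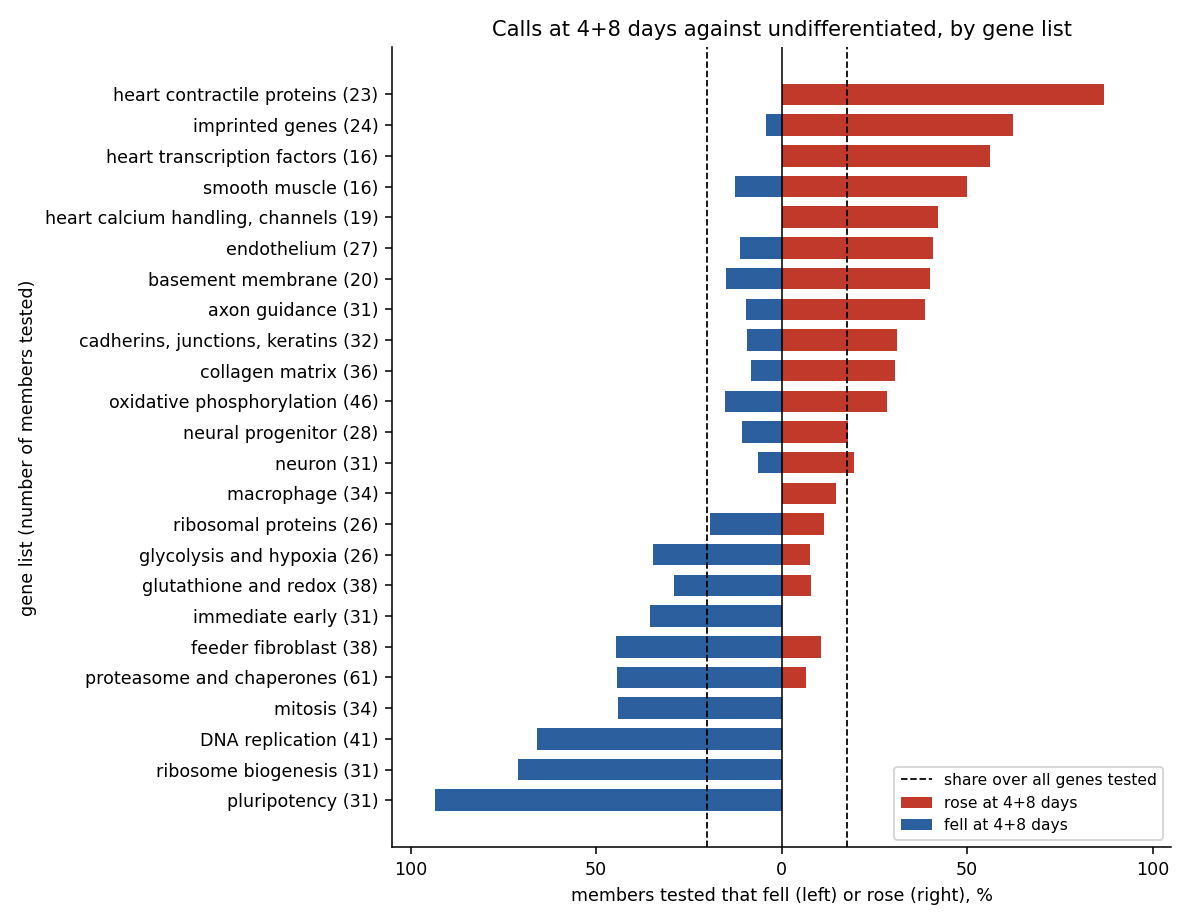
Share of the tested members of 24 gene lists that rose (red, right) or fell (blue, left) at 4+8 days against undifferentiated cells, with the number of members tested in brackets; dashed lines mark the shares over all 6650 genes tested, 17.7% and 20.2%. Contractile proteins of the heart stand at 87.0% risen at the top and pluripotency genes at 93.5% fallen at the bottom.

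Imprinted genes are read from only the maternal or only the paternal copy, and many of them govern fetal growth. Of 24 tested, 15 rose (62.5%, against 17.7% of all genes), 1 fell and 8 did not pass, with a median log2 difference of 1.07, and 14 to 16 rose without 1 array. Plagl1, a zinc finger factor of an imprinted gene network, read 896, 338 and 1663 at 4+8 days, against 22.95, 19.02 and 27.5 in undifferentiated cells, a difference of 4.70 ± 0.53 (adjusted p = 0.000226). Peg3, another paternally expressed zinc finger gene, read 3165, 3384 and 4414 at 4+8 days, against 347, 419 and 365 undifferentiated, a difference of 3.24 ± 0.33 (adjusted p = 0.000134). Nnat, a small membrane protein of the developing brain, read 600.4, 817 and 494 at 4+8 days, against 30.2, 49.7 and 28.2 undifferentiated, a difference of 3.87 ± 0.83 (adjusted p = 0.00563). The highest culture was replicate 3 for Plagl1 and Peg3 and replicate 2 for Nnat. Igf2, the fetal growth factor and one of the brightest called genes at 4+8 days, read 13693, 6270.1 and 15280.3 at 4+8 days, against 1637, 3534 and 1851 undifferentiated, a difference of 2.31 ± 0.38 (adjusted p = 0.00141). Igf2r, the receptor that clears it, was at 1.61 ± 0.28 (adjusted p = 0.00182). Cdkn1c, an inhibitor of cyclin-dependent kinases, read 1657, 1630.2 and 2221 at 4+8 days, against 335, 386 and 211 undifferentiated, a difference of 2.56 ± 0.33 (adjusted p = 0.000456). Phlda2, which restrains placental growth, was the member that fell, at −0.996 ± 0.34 (adjusted p = 0.0447), a call lost in 5 of the 6 fits without 1 array (adjusted p up to 0.12).

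Of 27 tested endothelial genes 11 rose and 3 fell, and 13 did not pass. The filter bears on the rises: 7 of the 11 were at or below 33.4 on every undifferentiated array. Of the 17 tested members above that limit on an undifferentiated array 4 rose. Cdh5, the cadherin that joins endothelial cells, read 74.4, 95.6 and 115 at 4+8 days, against 3.44, 2.74 and 2.8 in undifferentiated cells, a difference of 3.21 ± 0.28 (adjusted p = 6.84e-05). Kdr, the main VEGF receptor, read 97.7, 111 and 171 at 4+8 days, against 20.3, 13.9 and 9.65 undifferentiated, a difference of 2.57 ± 0.25 (adjusted p = 0.000122), and Apln, a peptide of growing vessels, was at 1.82 ± 0.18 (adjusted p = 0.000142). All 3 genes were higher in each culture than in any undifferentiated array. Thbd, an anticoagulant receptor that parietal endoderm also makes, was among the falls at 0.927, 13.8 and 9.1 at 4+8 days, against 126, 131 and 115 undifferentiated, a difference of −3.14 ± 0.40 (adjusted p = 0.000424). Thbd read 123 and 112 in feeder cells alone, and the part of feeder cells in this fall was not tested. The falls numbered 1 without undifferentiated replicate 5 or 9.

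Among 13 red cell genes there were 6 rises and 2 falls. The alpha globin Hba-a1 read 385, 106 and 869 at 4+8 days, against 45.6, 40.03 and 23.1 undifferentiated, a difference of 2.98 ± 0.59 (adjusted p = 0.00374). The embryonic beta-like globin Hbb-bh1 read 172, 34.2 and 298 at 4+8 days, against 15.2, 12.1 and 15.4 undifferentiated, a difference of 2.58 ± 0.56 (adjusted p = 0.00622). Their probe sets may bind related globins. Both were highest in replicate 3 and lowest in replicate 2. Car2, a carbonic anhydrase, fell to 114, 40.4 and 97.5 at 4+8 days, against 1621, 837 and 1239 in undifferentiated cells.

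Epithelial and matrix genes rose in part. Among 32 cadherins, junction proteins and keratins there were 10 rises and 3 falls. Dsc2, a cadherin of the desmosomes that heart muscle and epithelia share, read 151, 72.5 and 204 at 4+8 days, against 11.2, 10.5 and 11.7 undifferentiated. Desmoplakin, Dsp, which ties desmosomes to filaments, read 779.7, 381 and 780.5 at 4+8 days, against 112, 127 and 111 undifferentiated. Both were lowest in replicate 2 and above every undifferentiated array in each culture, with differences of 2.87 ± 0.39 and 2.33 ± 0.37 (adjusted p = 0.000552 and 0.00124). Epcam, an epithelial adhesion protein of ES cells, fell by 2.14 log2 units (adjusted p = 0.0082), while E-cadherin, Cdh1, rose by 0.81 ± 0.15 (adjusted p = 0.00305) and N-cadherin, Cdh2, by 1.23 ± 0.21 (adjusted p = 0.00198). Basement membrane genes rose in 8 of 20 cases and fell in 3. Col4a1, a chain of the collagen of basement membranes, read 1232, 1496 and 1426 at 4+8 days, against 459, 445 and 329 undifferentiated, a difference of 1.74 ± 0.19 (adjusted p = 0.000218), and the dystroglycan gene Dag1 was at 1.57 ± 0.21 (adjusted p = 0.000546). The laminin chain Lama4 fell to 40.6, 59.4 and 56.5, against 182, 164 and 135 in undifferentiated cells.

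Of 36 genes of the collagen matrix 11 rose, 3 fell and 22 did not pass. Without 4+8 day replicate 2 the rises numbered 17, without undifferentiated replicate 9 they numbered 7, and without 4+8 day replicate 3 there were 7 falls. Mfap2, a protein of elastic microfibrils, and Lum, a small proteoglycan, were at 2.14 ± 0.30 and 2.12 ± 0.35 (adjusted p = 0.000677 and 0.00146). Col1a1, the main chain of fibrillar collagen, read 10278, 2826 and 14356 at 4+8 days, against 3616, 3213 and 2106 undifferentiated, and did not pass at 1.36 ± 0.52 (adjusted p = 0.0647). Falls included Bgn, a small matrix proteoglycan, at 129.8, 223 and 335 at 4+8 days, against 3119, 2991 and 1924 undifferentiated. Mfap5, a microfibril protein, read 5.26, 3.62 and 5.65 at 4+8 days, against 194, 126 and 114 undifferentiated. The groups overlapped for neither, and the differences were −3.57 ± 0.32 and −3.54 ± 0.23 (adjusted p = 6.77e-05 and 1.34e-05). A dimmer probe set of Mfap5 went the other way and did not pass, at 0.47 (adjusted p = 0.432). It read 31.2, 114 and 29.9 at 4+8 days, against 25.2, 49.2 and 27.9 undifferentiated. Of 23 integrin and adhesion genes 2 rose and 6 fell (6 rose without 4+8 day replicate 1), with Thbs2, a matrix protein, at −3.67 ± 0.45 (adjusted p = 0.000341), the tenascin Tnc at −1.92 ± 0.42 (adjusted p = 0.00612) and Vtn, which ES cells can adhere to, at 2.82 ± 0.51 (adjusted p = 0.00232). Among 27 genes of proteases and their inhibitors 4 rose and 3 fell (8 rose without 4+8 day replicate 2 and 6 fell without replicate 3), with Serpinf1, an inhibitor of vessel growth, at −2.78 ± 0.33 (adjusted p = 0.0003).

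Receptors and ligands of axon and vessel guidance rose in 12 of 31 cases and fell in 3. Nrp1, a co-receptor for semaphorins and VEGF, read 1492, 905 and 2909 at 4+8 days, against 117, 105 and 95.6 in undifferentiated cells, a difference of 3.81 ± 0.41 (adjusted p = 0.000186). Plxnd1, a semaphorin receptor of vessels, read 372, 183 and 397 at 4+8 days, against 22.95, 19.7 and 38.7 undifferentiated, a difference of 3.17 ± 0.38 (adjusted p = 0.000315). Replicate 3 was highest and replicate 2 lowest for both. Unc5c and Plxna3, receptors for netrin and semaphorins, were at 2.22 ± 0.41 and 1.76 ± 0.19 (adjusted p = 0.00268 and 0.000185), the second with nearly equal values of 222, 216 and 216 at 4+8 days, against 68.8, 60.02 and 49.1 in undifferentiated cells. Epha2, an ephrin receptor of ES cells, fell by 1.95 log2 units (adjusted p = 0.0103).

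Of 43 tested genes of the TGF-beta and BMP pathways 12 rose, 10 fell and 21 did not pass. Of the 10 falls 5 were at or below 33.4 on every 4+8 day array. The ligand Nodal, its co-receptor Tdgf1, its inhibitor Lefty1, the related ligand Gdf3 and the transcription factor Foxh1, all of the Nodal branch, fell by 2.62, 3.76, 3.71, 4.24 and 2.05 log2 units. Lefty1 read 95.9, 59.3 and 54.3 at 4+8 days, against 1558, 729 and 840.0 undifferentiated. Of known targets of BMP signals, Id2, an inhibitor of differentiation factors, read 1769.6, 3119 and 1182 at 4+8 days, against 172, 471 and 275 undifferentiated, a difference of 2.69 ± 0.48 (adjusted p = 0.00235). Smad6, which restrains BMP signals, read 362, 268 and 338 at 4+8 days, against 52.5, 65.96 and 57.1 undifferentiated, a difference of 2.31 ± 0.20 (adjusted p = 6.07e-05), and the ligand Bmp5 was at 2.45 ± 0.38 (adjusted p = 0.00113). Id3, another target of BMP, did not pass, with 1049, 1178 and 192 at 4+8 days, against 221, 708 and 568 in undifferentiated cells.

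The FGF and IGF list held 8 rises and 6 falls among 23 genes. Of the 6 falls 4 were at or below 33.4 on every 4+8 day array. The growth factor Fgf4 of ES cells read 270.2, 276 and 138 at 4+8 days, against 762, 558 and 695 undifferentiated, a difference of −1.58 ± 0.26 (adjusted p = 0.00167). Fgf5 of the epiblast fell by 2.05 log2 units and Fgf17 by 2.42 (adjusted p = 0.0022 and 0.000582). Igf1 rose by 1.76 ± 0.23 (adjusted p = 0.000507) and Fgf11 by 2.11 ± 0.31 (adjusted p = 0.000823). A dimmer probe set of each did not pass, at 1.14 for Igf1 and 0.11 for Fgf11 (adjusted p = 0.229 and 0.86). Of 33 Wnt genes 10 rose and 4 fell (6 rose without any 1 undifferentiated array, and 2 fell without replicate 5 or 9). Tcf7l1, a repressor of Wnt targets, read 779, 780.1 and 733 at 4+8 days, against 286, 278 and 327 undifferentiated. The receptor gene Fzd2 was at 1.75 ± 0.27 (adjusted p = 0.000984) and the ligand Wnt5a at −2.09 ± 0.27 (adjusted p = 0.000459). Among 19 Notch genes 3 rose and 1 fell (5 rose without 4+8 day replicate 1), and the atypical ligand Dlk1 read 4630.4, 1832 and 6463 at 4+8 days, against 258, 217 and 313 undifferentiated. Of 20 retinoid genes 7 rose and 2 fell (3 or 4 rose without 4+8 day replicate 1 or any 1 undifferentiated array). Of these 7, 5 were at or below 33.4 on every undifferentiated array, and of the 13 tested members above that limit 2 rose. The 2 falls were at or below it on every 4+8 day array. The retinoic acid receptors Rarg and Rara were the members that fell, Rarg to 4.5, 5.05 and 7.95, against 145, 98.7 and 125 in undifferentiated cells, while Cyp26a1, which degrades retinoic acid, was at 1.64 ± 0.37 (adjusted p = 0.00779).

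Nearly all tested pluripotency genes fell. Of 31, 29 fell, 0 rose and 2 did not pass (14 of the 29 were at or below 33.4 on every 4+8 day array, and no member on the chip was left untested), with a median log2 difference of −3.71, and 28 to 30 fell without 1 array. Dppa5a, an RNA-binding protein of ES cells and one of the brightest called genes there, read 61.8, 62.03 and 4.9 at 4+8 days, against 6009.9, 6927 and 6463 in undifferentiated cells. Zfp42 (Rex1), a zinc finger marker of ES cells, read 8.09, 7.85 and 6.01 at 4+8 days, against 1691, 1621 and 2195 undifferentiated. Pou5f1, which encodes Oct4, read 29.4, 22.8 and 31.7 at 4+8 days, against 2125, 1649 and 2724 undifferentiated. The highest 4+8 day value among these 3 genes was 62.0, and the lowest undifferentiated value 1621, and the differences were −7.34 ± 0.57, −6.90 ± 0.18 and −5.90 ± 0.24 (adjusted p = 3.53e-05, 3.54e-08 and 1.04e-06). Nr0b1, a nuclear receptor that binds Oct4, read 6.87, 8.88 and 13.3 at 4+8 days, against 772, 872 and 979 undifferentiated, a difference of −5.65 ± 0.28 (adjusted p = 2.28e-06). Mybl2, a cell cycle transcription factor, read 18.01, 15.7 and 16.3 at 4+8 days, against 934, 929 and 1054 undifferentiated, a difference of −5.31 ± 0.33 (adjusted p = 9.01e-06). Nanog, which sustains self-renewal, read 35.9, 34.5 and 32.1 at 4+8 days, against 1696, 1548 and 1671 undifferentiated, a difference of −5.29 ± 0.23 (adjusted p = 1.58e-06). The last 2 had nearly equal values in all 3 cultures. Sall4, Tfcp2l1 and Klf5, further factors of the network, fell by 3.86, 3.75 and 2.79 log2 units, and Esrrb, a dim probe set, by 1.33 (adjusted p = 0.00035, 0.000552, 0.000251 and 0.00388). Tbx3 and Pecam1, the members that did not pass, were at −1.33 and 0.13.

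The promoter of Nanog is known for a joined Oct4 and Sox2 element. Searched as CATTGTNATGCAAA on both strands, that element was present in 2 of the 32851 RefSeq promoters, both of them entries of Nanog. Of the 29 pluripotency genes that fell, 20 had an entry, and 0 of these held a CArG box. The pattern searched for the MEF2 site was present for 2 of the 20 (Klf2 and Tfcp2l1). One of the entries of Nanog is printed because Nanog alone among these 20 genes held an exact match in the searched bases. The match lies on the reverse strand, ends 61 bases before the start and is in capitals. Variant forms and sites outside these bases were not searched.
Nanog, chr6:122707239-122707538, plus strand, GRCm38.p6: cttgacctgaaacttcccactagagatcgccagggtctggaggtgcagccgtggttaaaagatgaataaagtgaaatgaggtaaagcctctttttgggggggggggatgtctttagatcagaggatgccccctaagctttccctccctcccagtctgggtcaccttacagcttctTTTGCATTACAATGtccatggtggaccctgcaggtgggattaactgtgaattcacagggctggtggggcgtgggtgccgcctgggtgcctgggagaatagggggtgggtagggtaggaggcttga

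Genes linked to pluripotency through other functions fell in smaller number. Of 6 tested germ cell genes 5 fell and 0 rose. The filter bears on this count: 4 of the 5 were at or below 33.4 on every 4+8 day array, and 5 more members on the chip were not tested. Tex19.1, a germ cell and placental gene, was at −3.20 ± 0.34 (adjusted p = 0.000166) and Zp3, an egg coat protein, at −1.79 ± 0.25 (adjusted p = 0.000596). Of 21 genes of LIF and STAT signalling 9 fell and 2 rose (3 or 4 fell without any 1 undifferentiated array), among them Osmr, a cytokine receptor, at −2.47 ± 0.50 (adjusted p = 0.00424) and Socs2, a feedback inhibitor, at −2.05 ± 0.36 (adjusted p = 0.00221). In the DNA methylation list 6 of 15 fell and 0 rose. Hells, a chromatin remodeller needed for methylation, read 65.5, 58.6 and 47.2 at 4+8 days, against 553, 627 and 722 undifferentiated, and Zfp57, which protects imprints, fell by 2.62 log2 units (adjusted p = 3.14e-05). The methyltransferase Dnmt3a fell by 1.45 log2 units (adjusted p = 0.0015), and the maintenance enzyme Dnmt1 did not pass at −0.32 ± 0.16 (adjusted p = 0.155).

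Of 35 genes of Polycomb complexes and other chromatin regulators 8 fell (22.9%), 3 rose (8.57%) and 24 did not pass. Over all genes 20.2% fell and 17.7% rose, so the share of falls in the list was near the background. The members named below are single genes. Among subunits of the complex that methylates histone H3, Eed read 158, 193 and 125 at 4+8 days, against 811, 819 and 920.0 undifferentiated. The accessory subunit Mtf2 read 107, 64.5 and 84.7 at 4+8 days, against 546, 609 and 657 undifferentiated, and Suz12, a core subunit, read 44.8, 83.6 and 62.03 at 4+8 days, against 273, 245 and 291 undifferentiated. The groups did not overlap for any of them, and the differences were −2.38 ± 0.19, −2.73 ± 0.20 and −1.99 ± 0.25 (adjusted p = 3.6e-05, 2.94e-05 and 0.000387). Jarid2, which recruits that complex, fell by 1.40 log2 units (adjusted p = 0.00441). The catalytic subunit Ezh2 did not pass, with 367, 868 and 257 at 4+8 days, against 468, 518 and 540.0 in undifferentiated cells. In the ubiquitin-adding complex Phc1 fell by 2.27, whereas Phc2 rose by 1.76 ± 0.25 (adjusted p = 0.000422 and 0.000677).

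Genes of DNA replication fell in 27 of 41 cases and rose in 0, with a median log2 difference of −1.17 (21 to 28 fell without 1 array and 6 with the values as deposited). Mcm10, which helps open the origin, read 29.1, 41.5 and 34.5 at 4+8 days, against 204, 198 and 253 in undifferentiated cells, a difference of −2.40 ± 0.21 (adjusted p = 6.07e-05). Orc1, the largest subunit of the origin recognition complex, read 63.4, 15.4 and 31.1 at 4+8 days, against 191, 194 and 193 undifferentiated, a difference of −2.32 ± 0.35 (adjusted p = 0.00102). Rfc5, part of the clamp loader, and Pold2, a polymerase subunit, were at −1.91 ± 0.32 and −2.58 ± 0.50 (adjusted p = 0.00172 and 0.0036). Pcna, the sliding clamp, fell by 1.26 log2 units (adjusted p = 0.00235). Each of these genes was lower in every 4+8 day culture than in any undifferentiated array.

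Mitosis genes fell in 15 of 34 cases and rose in 0 (9 fell without undifferentiated replicate 1 or 9, and 1 with the values as deposited). Ect2, an activator of cell division, read 211, 301 and 168 at 4+8 days, against 812, 900.4 and 951 undifferentiated, a difference of −1.97 ± 0.40 (adjusted p = 0.00439). Plk4, which duplicates centrioles, read 147, 154 and 132 at 4+8 days, against 545, 406 and 599.9 undifferentiated, a difference of −1.77 ± 0.33 (adjusted p = 0.00295). Neither shows overlap between the groups. The mitotic kinase Cdk1 and its cyclins were chosen after their values were seen. Cdk1 read 1087, 878 and 819 at 4+8 days, against 951, 876 and 1032 undifferentiated. Cyclin A2, Ccna2, read 463, 646 and 445 at 4+8 days, against 597, 492 and 500.5 undifferentiated, and cyclin B2, Ccnb2, read 1396, 1084 and 721 at 4+8 days, against 1165, 1087 and 1195 undifferentiated. The groups overlapped for all 3, and none passed, at −0.05 ± 0.27, −0.05 ± 0.30 and −0.16 ± 0.26 (adjusted p = 0.91, 0.918 and 0.664). Of 26 genes of G1 control 5 rose and 4 fell. Beside Cdkn1c, which rose too, the kinase inhibitor Cdkn2d was at 1.13 ± 0.25 (adjusted p = 0.00665). The cyclin Ccnd3 read 1133, 704 and 1722 at 4+8 days, against 364, 394 and 368 undifferentiated, while Mdm2, the p53 ubiquitin ligase, was at −1.91 ± 0.44 (adjusted p = 0.00832).

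Of 31 ribosome biogenesis genes 22 fell and 0 rose, with a median log2 difference of −0.97 (15 to 26 fell without 1 array and 4 with the values as deposited). Bop1, a factor of large subunit assembly, read 40.05, 31.1 and 8.58 at 4+8 days, against 287, 206 and 281 undifferentiated, a difference of −3.07 ± 0.37 (adjusted p = 0.000303). Gnl3, a nucleolar GTPase of stem cells also called nucleostemin, read 159.5, 202 and 206 at 4+8 days, against 816, 782 and 932 undifferentiated, a difference of −2.11 ± 0.18 (adjusted p = 5.15e-05). Ncl, nucleolin, and Npm1, nucleophosmin, were among the brightest called genes of undifferentiated cells and fell by 0.97 and 0.65 log2 units (adjusted p = 0.00997 and 0.0242). The Npm1 call was lost in 4 of the 6 fits without 1 array (adjusted p up to 0.0687), and its difference was 0.30 with the values as deposited. Of 26 ribosomal proteins 3 rose and 5 fell (3 fell without undifferentiated replicate 9), with a median of −0.01 whose sign relative to all genes turned under both other scalings. Rpl13a, a protein of the large subunit, read 541, 634 and 559 at 4+8 days, against 2869.6, 2888 and 2098 undifferentiated, a difference of −2.15 ± 0.21 (adjusted p = 0.000112).

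Of 41 genes of translation and tRNA charging 14 fell and 3 rose (8 fell without undifferentiated replicate 1 or 9), with the tRNA synthetases Eprs and Farsb at −1.90 ± 0.26 and −1.67 ± 0.18 (adjusted p = 0.000564 and 0.000185) and the elongation factor Eef1a1 at 0.13 ± 0.16, which did not pass (adjusted p = 0.56). Proteasome subunits and chaperones fell in 27 of 61 cases and rose in 4 (20 to 28 fell without 1 array and 6 with the values as deposited). Hsph1, a chaperone of the Hsp110 family, read 217, 247 and 213 at 4+8 days, against 732, 1178 and 988 undifferentiated, and Hsp90aa1, another of the brightest called genes of undifferentiated cells, read 4157, 5272 and 2739.8 at 4+8 days, against 8634, 9853 and 11596 undifferentiated. Among proteasome subunits Psmd12 and Psmd11 fell by 1.81 and 1.61 log2 units (adjusted p = 0.00108 and 0.00147). Hspb2, a small heat shock protein of muscle, and Serpinh1, the collagen chaperone, rose by 1.62 ± 0.25 and 1.33 ± 0.29 (adjusted p = 0.00107 and 0.00619). Of 41 splicing genes 12 fell and 2 rose, with the spliceosome subunits Sf3b1 and Sf3b2 on opposite sides at −2.44 ± 0.33 and 1.18 ± 0.16 (adjusted p = 0.000567 and 0.000653).

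In glycolysis and the response to low oxygen 9 of 26 fell, 2 rose and 15 did not pass. The hexokinase Hk2 read 57.4, 155 and 219 at 4+8 days, against 747, 626 and 870.3 undifferentiated, while Hk1, another hexokinase, did not pass at 0.23 ± 0.16 (adjusted p = 0.299). The lactate carrier Slc16a1 fell by 2.05 log2 units and the oxygen sensor Egln1 rose by 1.63 ± 0.24 (adjusted p = 0.000251 and 0.000889). In the list of oxidative phosphorylation 13 of 46 rose and 7 fell (7 or 8 rose without 4+8 day replicate 1 or any 1 undifferentiated array), with a median of 0.18 whose sign relative to all genes turned under both other scalings. Of 38 genes of glutathione and redox control 11 fell and 3 rose (5 rose without 4+8 day replicate 2 or 3). Gsta4, a glutathione transferase, read 27.2, 73.97 and 9.78 at 4+8 days, against 453, 566 and 491 undifferentiated, a difference of −3.78 ± 0.53 (adjusted p = 0.000664), and Gsto1 was at −1.97 ± 0.30 (adjusted p = 0.00106). Of 31 immediate early genes 11 fell and 0 rose (5 to 7 fell without 4+8 day replicate 1 or 2 or undifferentiated replicate 5 or 9). Sgk1, a kinase induced by serum, read 52.6, 120.3 and 82.8 at 4+8 days, against 1416, 2167 and 1999 undifferentiated, a difference of −4.37 ± 0.31 (adjusted p = 2.5e-05).

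Other lists of tissues, patterning and lipid synthesis held from 13.6% to 46.2% risen genes. In visceral endoderm and liver Cited1, a transcriptional co-regulator, was at 2.34 ± 0.31 and Ttr, a thyroid hormone carrier, at 2.13 ± 0.35 (adjusted p = 0.00049 and 0.00141). Of the 8 rises there 6 were at or below 33.4 on every undifferentiated array. Rises and falls numbered 8 and 1 among the 23 genes of that list (5 rises without undifferentiated replicate 1). They numbered 6 and 1 among 13 kidney and gonad genes (2 or 3 rises without 4+8 day replicate 1 or 2 or any 1 undifferentiated array), 3 and 4 among 22 genes of early mesoderm (7 rises without 4+8 day replicate 3), 4 and 2 among 22 Hox genes, 5 and 2 among 23 of cholesterol and lipid synthesis (3 rises without 4+8 day replicate 2 or undifferentiated replicate 1 or 9), and 3 and 3 among 11 of glia. In the early mesoderm list Snai1, a repressor of E-cadherin, read 5.42, 10.6 and 12.3 at 4+8 days, against 111, 84.7 and 58.8 undifferentiated. Tcf21, a factor of the epicardium and kidney, read 134, 103 and 63.8 at 4+8 days, against 5.45, 17.1 and 11.3 undifferentiated. All 4 falls of that list were at or below 33.4 on every 4+8 day array. Scd2, a fatty acid desaturase, rose by 1.27 ± 0.23 (adjusted p = 0.00255).

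Markers fixed for other cell types bear on the labelled identity of the 4+8 day cultures. Nes, which encodes nestin, read 233, 417 and 195 at 4+8 days, against 216, 196 and 165 in undifferentiated cells, and did not pass at 0.46 ± 0.32 (adjusted p = 0.27). Of 10 tested markers of neural progenitors 0 rose and 1 fell, Sox2, a call lost in 5 of the 6 fits without 1 array (adjusted p up to 0.0796). The list had a summed intensity of 458.1 to 4825 at 4+8 days against 3637 to 4313 in undifferentiated cells, where Sox2, which undifferentiated ES cells also make, holds most of the sum. Over the other 9 markers the sums were 1225, 3482 and 383.8 at 4+8 days, against 442.8, 406.5 and 404.3 in undifferentiated cells. Replicates 1 and 2 were thus above every undifferentiated array and replicate 3 below them. All 9 had a higher mean intensity at 4+8 days, but on the log2 scale Pax6 was lower, at −0.26. None of the 9 passed. Prom1, a surface protein of progenitors, read 198, 317 and 55.4 at 4+8 days, against 71.1, 53.4 and 62.5 undifferentiated. Neurog2, a factor of new neurons, read 56.6, 80.7 and 11.1 at 4+8 days, against 18.1, 18.7 and 2.97 undifferentiated. Hes5, a target of Notch, read 46.1, 62.03 and 42.2 at 4+8 days, against 13.4, 16.3 and 26.1 undifferentiated, with no overlap between the groups. Pax6, a defining factor, had a mean below the limit of 33.4 in both groups. The sum over the cardiomyocyte markers was 7438 to 17847 at 4+8 days against 392.4 to 438.7 in undifferentiated cells. Of 11 tested markers 11 rose, but 9 of these were at or below the limit on every undifferentiated array, so the filter bears on that count, and 3 on the chip were not tested. The cardiac factor Nkx2-5 and the calcium channel Ryr2 nevertheless had 4+8 day means below that limit. Heart markers were thus high in all 3 cultures and neural progenitor markers uneven between them, and the group is called here by its 4+8 days. Sums over the markers of undifferentiated ES cells were 600.7 to 1962 at 4+8 days against 19192 to 21451 undifferentiated. Those of visceral endoderm were 618.3 to 1709 at 4+8 days against 246.1 to 274.3 undifferentiated, of endothelium 801.5 to 1102 at 4+8 days against 501.2 to 555.2 undifferentiated, of smooth muscle 2506 to 3846 at 4+8 days against 850.3 to 1168 undifferentiated and of parietal endoderm 4655 to 7996 at 4+8 days against 2255 to 3159 undifferentiated. Macrophage markers summed to 346.1 to 7828 at 4+8 days against 364.6 to 759.3 undifferentiated, red cell markers to 270.3 to 2014 at 4+8 days against 195.2 to 252.2 undifferentiated and neuron markers to 1014 to 3537 at 4+8 days against 1329 to 1736 undifferentiated. In feeder cells alone the smooth muscle markers summed to 12163 to 13906 and those of parietal endoderm to 9431 to 9708, above every 4+8 day array. Their tested markers rose in 4 of 7 and 3 of 10 cases. Sparc, which was not called, held 4501 of the highest 4+8 day sum of parietal endoderm. Alb, also not called, held 771 of the highest sum of visceral endoderm, where 3 of 7 tested markers rose. The part of these cell types in the differences above was not tested.

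The 3 cultures at 4+8 days differed from each other more than the undifferentiated ones did. The median range of log2 intensity over the 3 arrays was 0.83 at 4+8 days against 0.36 in undifferentiated cells. In 684 genes (10.3%) the range at 4+8 days was over 2 log2 units, against 37 genes in undifferentiated cells. Of these 684, replicate 3 was highest in 310, replicate 2 in 223 and replicate 1 in 151. Replicates 1 and 3 correlated at 0.884 across probe sets, 1 and 2 at 0.845 and 2 and 3 at 0.810 (Spearman, as a description).

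The culture with the highest values was not the same for neural progenitor genes and macrophage genes. Of 28 neural progenitor genes 16 had a range of over 2 log2 units, and all 16 were highest in replicate 2. Of 34 macrophage genes 22 had such a range, and all 22 were highest in replicate 3. The median of the neural list relative to the undifferentiated mean was 0.72, 1.78 and 0.07 in replicates 1, 2 and 3, and that of the macrophage list 1.86, −0.13 and 3.05. Heart contractile genes differed far less between the same arrays, at 4.01, 3.62 and 3.85. Zic1, a zinc finger factor of the dorsal neural tube, read 210.4, 1060.4 and 1.35 at 4+8 days, against 42.1, 66.6 and 53.3 undifferentiated. Fabp7, a lipid-binding protein of radial glia, read 410.95, 1319.8 and 22.2 at 4+8 days, against 3.84, 4.45 and 19.9 undifferentiated. Crabp1, which binds retinoic acid in the cell, read 375, 1125 and 10.3 at 4+8 days, against 977, 1342 and 1008 undifferentiated. Fgf15, a growth factor of the neural tube, read 59.7, 397 and 9.44 at 4+8 days, against 87.4, 58.4 and 103 undifferentiated. Each of these 4 genes was highest in replicate 2 and lowest in replicate 3, and none passed the test.

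On the macrophage side Tyrobp, a signalling adaptor of myeloid cells, read 534, 15.6 and 1127 at 4+8 days, against 23.1, 23.1 and 9.17 undifferentiated. Csf1r, the receptor on which macrophages depend, read 326, 15.99 and 709 at 4+8 days, against 38.4, 31.1 and 37.8 undifferentiated, and Mpeg1, a pore-forming protein of phagocytes, read 191, 9.51 and 1299.8 at 4+8 days, against 38.4, 41.8 and 28.97 undifferentiated. C1qc, a complement subunit, read 353, 15.99 and 788 at 4+8 days, against 73.7, 39.8 and 41.3 undifferentiated, and Ncf4, a subunit of the phagocyte oxidase, read 189, 1.9 and 220.3 at 4+8 days, against 6.89, 3.48 and 3.31 undifferentiated. Replicate 2 lay below the undifferentiated range for Csf1r, Mpeg1, C1qc and Ncf4, and within it for Tyrobp. Ctsc, a protease of myeloid cells, read 107, 4.09 and 273 at 4+8 days, against 55.98, 83.6 and 61.97 undifferentiated. Saa3, an acute phase protein, read 839, 11.2 and 1227 at 4+8 days, against 48.6, 52.7 and 31.3 undifferentiated. Both had the same order of cultures as the other 5 genes, and none of the 7 passed the test. Ccnd2, a cyclin of G1, was instead lowest in replicate 1, at 7.18, 381 and 315 at 4+8 days, against 49.5, 78.6 and 92.95 undifferentiated.

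In the neural progenitor list 5 of 28 rose (17.9%) and 3 fell (10.7%). In the macrophage list 5 of 34 rose (14.7%) and 0 fell. Over all genes 17.7% rose and 20.2% fell, so the share of rises in both lists was near the background. Without 4+8 day replicate 3 the neural rises numbered 10, and without any other 1 array 2 or 3. Without 4+8 day replicate 2 the macrophage rises numbered 20, and without any other 1 array 2. Mdk, a heparin-binding growth factor, and Sox4 rose in all 6 such fits, at 1.67 ± 0.37 and 1.58 ± 0.31 (adjusted p = 0.00687 and 0.00384), as did Cybb, a subunit of the phagocyte oxidase, at 1.96 ± 0.50 (adjusted p = 0.0123). Gbx2, a factor of the hindbrain boundary that ES cells also make, fell to 6.31, 4.36 and 7.49, against 103, 66.2 and 110.0 in undifferentiated cells. The neuron list had 6 rises and 2 falls among 31, with 10 of its 11 most variable genes highest in replicate 2, and Ncam1, a neural and cardiac adhesion molecule, at 2.13 ± 0.37 (adjusted p = 0.00193). Of 36 genes of antigen presentation and interferon 4 rose and 0 fell (11 rose without 4+8 day replicate 2 and 0 to 2 without any other 1 array, and 4 fell without replicate 3), and of 37 lysosome genes 4 rose and 2 fell (11 rose without 4+8 day replicate 2).

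**Figure D4:**
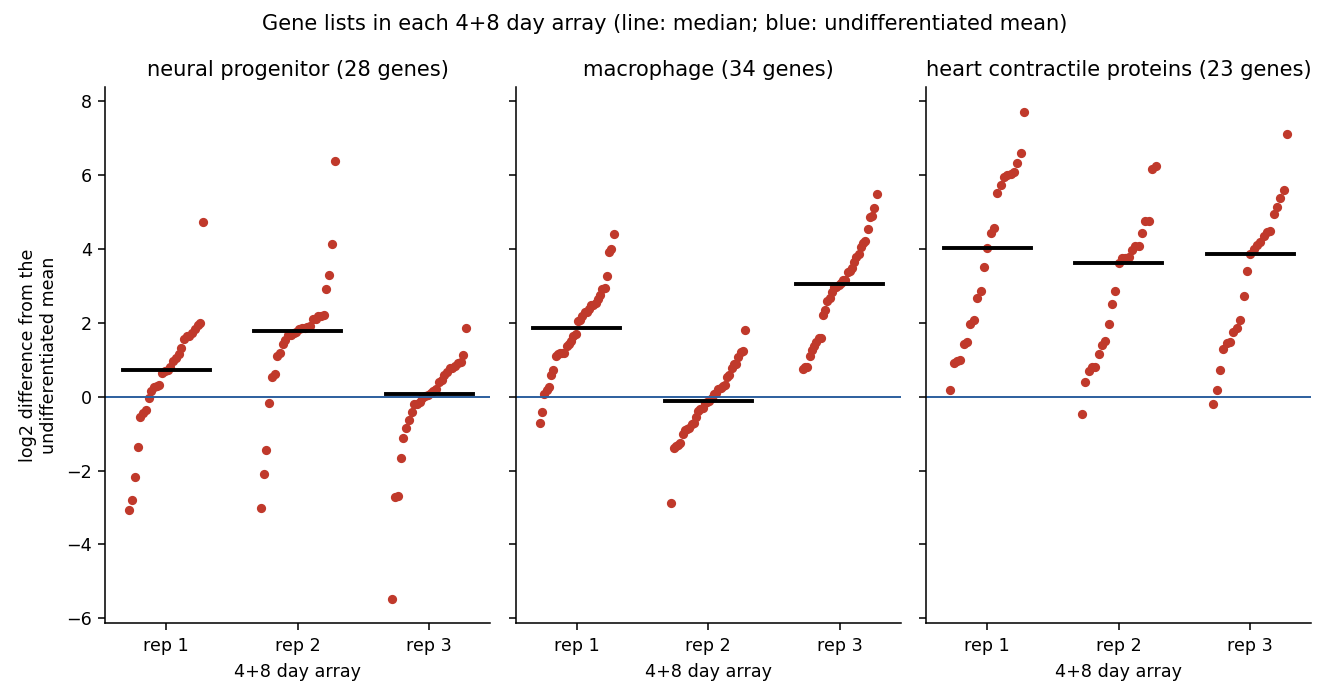
Log2 difference of each gene of 3 lists from its undifferentiated mean in each 4+8 day array; each red point is 1 gene, black lines are list medians and the blue line marks the undifferentiated mean. Medians of the neural progenitor list are 0.72, 1.78 and 0.07 in replicates 1, 2 and 3, those of the macrophage list 1.86, −0.13 and 3.05, and those of heart contractile proteins 4.01, 3.62 and 3.85.

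Genes of the feeder fibroblasts, which share the dish with ES cells, fell in 17 of 38 cases and rose in 4 (11 fell without 4+8 day replicate 1, 10 without undifferentiated replicate 5, and 7 rose without 4+8 day replicate 2). Of the 17 falls 10 were at or below 33.4 on every 4+8 day array. Mmp3, a matrix protease, read 3.08, 5.15 and 21.2 at 4+8 days, against 1121, 2487 and 1015 in undifferentiated cells, a difference of −6.46 ± 0.49 (adjusted p = 3.14e-05). It read 212.9 and 361.3 in the 2 arrays of feeder cells alone, below every undifferentiated array. Thy1, a surface protein of fibroblasts, read 31.8, 6.97 and 7.78 at 4+8 days, against 834, 719 and 654 undifferentiated, and 1116 and 2308 in feeder cells alone, a difference of −5.13 ± 0.54 between the first 2 groups (adjusted p = 0.000161). The chemokine Cxcl1 read 13.2, 2.8 and 65.9 at 4+8 days, against 332, 2209.9 and 1857 undifferentiated, a difference of −5.45 ± 0.87 (adjusted p = 0.00124), and Ccl2 and the prostaglandin enzyme Ptgs2 fell by 2.61 and 2.74 log2 units (adjusted p = 0.0278 and 0.0273), calls lost in 5 and 4 of the 6 fits without 1 array (adjusted p up to 0.0859 and 0.0928). On the other side Cxcl12, a chemokine that guides progenitors, and Timp3, a protease inhibitor, were at 2.29 ± 0.55 and 1.997 ± 0.46 (adjusted p = 0.00934 and 0.00779). Of 14 tested fibroblast markers 3 rose and 6 fell, and the sum over the 15 markers on the chip was 9768 to 35320 at 4+8 days, 13215 to 18917 in undifferentiated cells and 42703 to 50679 in feeder cells. Col1a1 and Col1a2 held most of the highest sum, at 14356 and 11787 of the 35320 in 4+8 day replicate 3. The markers that rose were Col1a2, Fn1 and Postn, at 1.68, 1.12 and 1.79 (adjusted p = 0.0176, 0.0197 and 0.0141). The 4+8 day means of Thy1, Mmp3, Mmp2, Cxcl1 and Fap were below 33.4. Mmp2 was below that value on every undifferentiated and feeder array as well. The part of feeder cells in these differences was not tested.

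The brightest called genes at 4+8 days include cytoskeletal and growth genes. Tuba1a, an alpha tubulin of neurons and embryonic tissue, read 9372, 14356 and 9268 at 4+8 days, against 4797, 5608 and 5152 undifferentiated, and Tmsb4x, which binds free actin, read 6219.6, 5224 and 10497 at 4+8 days, against 1798, 2591 and 1764 undifferentiated. Gnas, an imprinted G protein subunit, read 9126, 7497 and 8968 at 4+8 days, against 3656, 3691 and 2826 undifferentiated, a difference of 1.33 ± 0.18 (adjusted p = 0.000535), and Laptm4a, a lysosomal membrane protein, read 6067, 4935 and 8694 at 4+8 days, against 1894, 2202 and 1116 undifferentiated. All 4 were higher in each culture than in any undifferentiated array. Nrep, a small intracellular protein, and Itm2a, a membrane protein of cartilage and T cells, were among the 15 largest rises but on none of the lists. Nrep read 1930.3, 2059.6 and 2188 at 4+8 days, against 112, 71.1 and 96.9 undifferentiated. Itm2a read 2991, 1405 and 3263 at 4+8 days, against 175, 126 and 108 undifferentiated. The groups lay apart in both, with differences of 4.37 ± 0.53 and 4.08 ± 0.34 (adjusted p = 0.000314 and 5.15e-05).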

How the data were processed

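Each of the 11 arrays measured the RNA of 1 culture on an Affymetrix MG_U74Av2 chip, per the file headers of the experiment files. The values are the authors' deposited linear intensities of 12488 probe sets. Which software summarised them was not given in the sources used here. Groups were taken from the sample titles.

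Intensities were quantile-normalised over the 11 arrays, 8 was added (their 20th percentile) and log2 was taken. The 66 control probe sets were left out, and 8940 probe sets with an intensity above 33.4 (the 40th percentile) on at least 2 arrays were tested. Under R 4.3.3, limma 3.58.1 fitted a model with 4 groups (lmFit and eBayes, two-sided, 7 residual degrees of freedom), with Benjamini-Hochberg adjustment over all probe sets. On simulated data with 200 changed probe sets of 8940 the same fit recovered 75 of 100 changed by 1.5 log2 units. In the data 37.1% of probe sets were called, and the adjustment depends on the share changed, so the recovery there may differ. Symbols came from the platform annotation: 10833 probe sets had 1 symbol, 396 several and 1193 none, and a gene is its brightest tested probe set with 1 symbol. The members and the 49 lists were chosen with earlier results of these data known. Of 1873 listed genes, 1508 had a probe set and 1274 were tested. A list gene that passed the filter only through the group where it is high had to differ. Counts over tested members still hold such genes: 605 of the 6650 genes were at or below the limit on every undifferentiated array, and 186 of these rose. Likewise 424 were at or below it on every 4+8 day array, and 243 of these fell.

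Genes named are the 15 largest rises and falls without overlap between the groups, up to 5 called members of each list each way and its 2 brightest uncalled ones, the markers, the 12 most variable genes at 4+8 days and the 10 brightest called genes of each group; members named outside this rule were chosen after their values were seen. Other scalings, filters, pseudocounts, fits and each array left out in turn were tried. The p-values rest on a spread pooled over the cultures of all 4 groups, although the 4+8 day arrays varied more than the undifferentiated ones. A fit on the 6 compared arrays alone called 1089 probe sets higher at 4+8 days and 1321 lower. With normalisation and filter also limited to those 6 arrays, 1132 were higher and 1340 lower of 8491 tested. The small number of arrays limits the precision.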

Additional observations from a re-analysis of the deposited data

Results flagged for a closer look

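Some of the 30 leading genes also differed between the 2 differentiated stages, in the contrast of 4+8 days minus 4+11 days of the same fit, where 23.3% of genes were called (10.8% higher at 4+8 days and 12.5% lower). The 4+11 day arrays shared the scan session of the undifferentiated ones, so stage and session cannot be told apart here either. These genes were chosen for their difference at 4+8 days, on arrays that this contrast shares. Of the listed genes 9 of 23 heart contractile proteins were higher at 4+8 days than at 4+11 days and 0 lower, 2 were higher and 1 lower of 19 in muscle energy metabolism, 1 and 1 of 13 in skeletal muscle, and 2 and 2 of 16 in smooth muscle. Among the leading genes, on the log2 scale, Myl7 differed by 3.57, Myh7 by 3.14, Myl4 by 2.81, Cox6a2 by 2.48, Mybpc3 by 2.46, Myh6 by 2.18, Csrp3 by 2.06, Tnnt2 by 2.05, Tnni1 by 1.78 and Tnnc1 by 1.70. Pou5f1, low at both stages, was also higher at 4+8 days, by 1.02. Lower at 4+8 days were Thy1 at −3.48, Sgk1 at −1.08 and Zfp982, a zinc finger gene, at −0.82. The other 16 leading genes did not pass in this contrast.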

How the results depend on the processing

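The scaling moved the counts most. With the values as deposited, 5665 probe sets were higher at 4+8 days and 387 lower, and the falls among genes of DNA replication, ribosome biogenesis and the proteasome with chaperones numbered 6, 4 and 6. The rises among macrophage and neural progenitor genes numbered 25 and 19 as deposited and 11 and 8 with each array scaled to 1 trimmed mean, a scaling that put 2481 probe sets higher. Macrophage rises also numbered 3 with a pseudocount at the 5th percentile, 3 with a filter at the 60th percentile and 8 with array weights, whose fit stopped before it converged. Without 1 array, 1018 to 1753 probe sets were higher and 1257 to 1978 lower, macrophage rises ran from 2 to 20 and neural progenitor rises from 2 to 10.

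Of 162 called genes named here, 156 were called in all 6 fits without 1 array. Under the 11 other settings 1 called gene changed sign, Npm1 at 0.30 as deposited, a setting under which 12 more lost their call. Array weights lost 5 calls and no other setting more than 2, but 13 of the 162 were not tested with a filter at the 60th percentile and 2 not as deposited. Uncalled genes changed sign as deposited: Ccna2 to 0.63, Ccnb2 to 0.54, Cdk1 to 0.63, Ctsc to 1.02, Dnmt1 to 0.37, Ezh2 to 0.48, Fgf15 to 0.81, Gata4 to 0.36 and Gja1 to 0.34. Ctsc was at 0.30 and Fgf15 at 0.079 with 1 trimmed mean, and at 0.23 and 0.054 with a pseudocount of 32. Ctsc was at 0.44 with array weights, and over the mean of probe sets Ctsc was at 0.77 and Dnmt1 at 0.34. Without 1 array the log2 difference of other uncalled genes spanned 0: Atp2a2 from −0.25 to 0.37, Ccna2 from −0.21 to 0.051, Ccnb2 from −0.37 to 0.10, Ccnd2 from −0.18 to 2.16, Cdk1 from −0.16 to 0.039, Ctsc from −0.995 to 1.27, Ezh2 from −0.71 to 0.15, Fgf15 from −1.37 to 0.90, Id3 from −0.026 to 1.30, Pecam1 from −0.24 to 0.74, Tcap from −0.012 to 0.50 and Zic1 from −0.44 to 2.98. The causes of these shifts were not tested.

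No paired analysis was possible because the 4+8 day and undifferentiated arrays share only 1 replicate number. Probe sets near background limit what can be said of dim genes, and 3 arrays a group limit the rest. Where different probe sets of a gene were tested, 229 of 601 further probe sets of called genes were called the same way and 38 the opposite way.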
